A study of Mus musculus with 2 samples.

Results

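The genes described here encode the collagens, laminins and basement membrane proteins of the mouse testis, with the fibronectin, elastic fibre, proteoglycan, matricellular and cross-linking genes that accompany them. They were chosen by name alone. A probe set counted if the platform annotation gave it exactly 1 gene symbol and that symbol belonged to one of these families, and each gene was read from its brightest probe set. The choice gave 57 genes of the 8251 genes measured, read by 81 probe sets.

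Polyadenylated RNA came from testes of Mili-/- mice and of Mili+/- mice at day 10 after birth, and each genotype was measured on 1 array. MILI, encoded by Piwil2, is a Piwi protein of germ cells that works with piRNAs. The Mili+/- animals also carry 1 mutant allele, so no wild-type testis was compared, and the labels give neither the strain, the design of the allele nor the number of mice behind an array. The submitters picked day 10 because dying cells appeared in the mutant from the next day on. With 1 array per genotype no difference has a replicate, no p-value is given, and each value describes these 2 arrays.

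The basement membrane is a thin sheet of type IV collagen and laminin networks, tied together by nidogens and perlecan. In the seminiferous tubule it lies between the Sertoli cells and spermatogonia on one side and the peritubular myoid cells on the other, and both somatic sides contribute to it. Outside it, fibril-forming collagens, fibronectin, elastin and small proteoglycans make up the wall and the interstitium. Collagens are trimers, so chains of the same protein are needed in set proportions, and the 2 common type IV chains, alpha 1 and alpha 2, come from the genes Col4a1 and Col4a2, which lie head to head and are transcribed away from a common promoter.

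That pair had the widest gap between chains among the 7 proteins whose chains were compared, so its promoter is shown first. The gap was 0.56 on the log2 scale, and type IX collagen came close at 0.53, though its chain gene Col9a1 was dim. In the RefSeq annotation of build GRCm38.p6 the starts of Col4a1 and Col4a2 lie 21 bases apart on chromosome 8, on opposite strands. Among the 35 of 57 genes matched in the RefSeq promoter table, no other pair had opposite starts within 2000 bases. The Col4a1 window, chr8:11312777-11313076 on the minus strand, and the Col4a2 window, chr8:11312555-11312854 on the plus strand, each cover 250 bases before and 50 after the annotated start. They are printed 5′ to 3′ along each gene, with capitals at every match on either strand to one of the motifs searched. These were the GC box, spelled GGGCGG, the CCAAT box, spelled CCAAT, and the TATA box, spelled TATAAA.
Col4a1: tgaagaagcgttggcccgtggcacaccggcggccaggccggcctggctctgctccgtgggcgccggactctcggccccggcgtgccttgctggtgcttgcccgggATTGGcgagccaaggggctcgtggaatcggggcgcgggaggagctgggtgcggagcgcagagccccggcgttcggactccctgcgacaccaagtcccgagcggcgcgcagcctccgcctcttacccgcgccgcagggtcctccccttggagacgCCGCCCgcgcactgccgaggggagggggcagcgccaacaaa
Col4a2: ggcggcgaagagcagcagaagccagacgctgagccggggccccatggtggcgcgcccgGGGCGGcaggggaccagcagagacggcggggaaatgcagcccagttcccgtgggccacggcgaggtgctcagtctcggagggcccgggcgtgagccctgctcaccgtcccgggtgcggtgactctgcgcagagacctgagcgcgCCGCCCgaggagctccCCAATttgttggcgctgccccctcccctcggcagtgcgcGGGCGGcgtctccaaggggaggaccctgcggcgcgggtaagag
The stretch that both windows hold, chr8:11312777-11312854, has 78 bases with 73.1% G or C and 1 GC box.
Shared stretch, plus strand: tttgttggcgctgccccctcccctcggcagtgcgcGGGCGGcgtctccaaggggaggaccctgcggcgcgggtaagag
Neither window holds TATAAA. Of the 35 matched genes, 21 (60%) had the GC box on either strand in at least 1 window, against 38.2% of all 27025 genes in the table. The CCAAT box was found for 13 (37.1%), against 41.1% of all genes, and the TATA box for 6 (17.1%), against 15.7%. Within each window the matches printed do not overlap one another. The GC box of the shared stretch is 1 run of bases that is printed in both windows and counts for both genes. A match is a run of letters and not a measured binding site.

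Each deposited value is a signal intensity on a linear scale. Differences are log2 values of Mili-/- minus Mili+/-, after each array was centred on its own median, which removed a shift of 0.11. To enter the comparison, a gene had to reach the array's median in at least one genotype (41.55 in Mili-/-, 38.5 in Mili+/-). This left 5095 genes, whose median difference was -0.13, and 42 of the 57 matrix genes. Since other scalings move that median to near 0, each difference is to be read against -0.13 and not against 0. The only error that could be estimated is how far probe sets for a common gene disagree, with an SD of 0.31 over 720 genes, which covers neither animals nor hybridisations. Signals of different genes are not set against each other, because probe sets differ in how brightly they respond.

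As a set the matrix genes were closely alike on the 2 arrays. The median difference of the 42 genes was -0.12, and 21 lay above and 21 below the median of all genes. Of the 42, 4 passed only through Mili+/- (Col4a5, Col7a1, Nid1 and Lox) and 0 only through Mili-/-, and those 4 all lay below that median. Where both signals had to reach their array's median, 38 matrix genes had a median of -0.09, against -0.13 for all genes. Of all genes 2.47% were at least 1.5-fold higher in Mili-/- and 5.04% at least 1.5-fold lower, and of the 42 matrix genes none was at least 1.5-fold higher and 2 were lower (4.76%). The share lower is near the background under this centring. The split of all genes depends on the scaling, with 3.87% higher and 2.43% lower without centring, 4.44% and 2.12% with centring on the 75th percentile, 3.57% and 2.85% when the arrays were quantile-normalized, and 3.61% and 2.71% with loess. After quantile normalization and loess the same 2 matrix genes were lower, so their share of 4.76% stood above that of all genes there, and no matrix gene was higher under any of these scalings. These 2 were Col4a1 and Col7a1, and none of the 42 reached 2-fold in either direction, against 0.844% of all genes. Col7a1 passed the filter only through its Mili+/- signal, a route that selects for lower values. With median centring and both signals required to reach their array's median, 1 matrix gene, Col4a1, was lower (2.63%, against 3.87% of all genes). The differences of the matrix genes had an SD of 0.25, against 0.32 for all genes, and 36 of 42 (85.7%) lay within 0.31 of the median of all genes, against 74.4% of all genes.

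**Figure D1:**
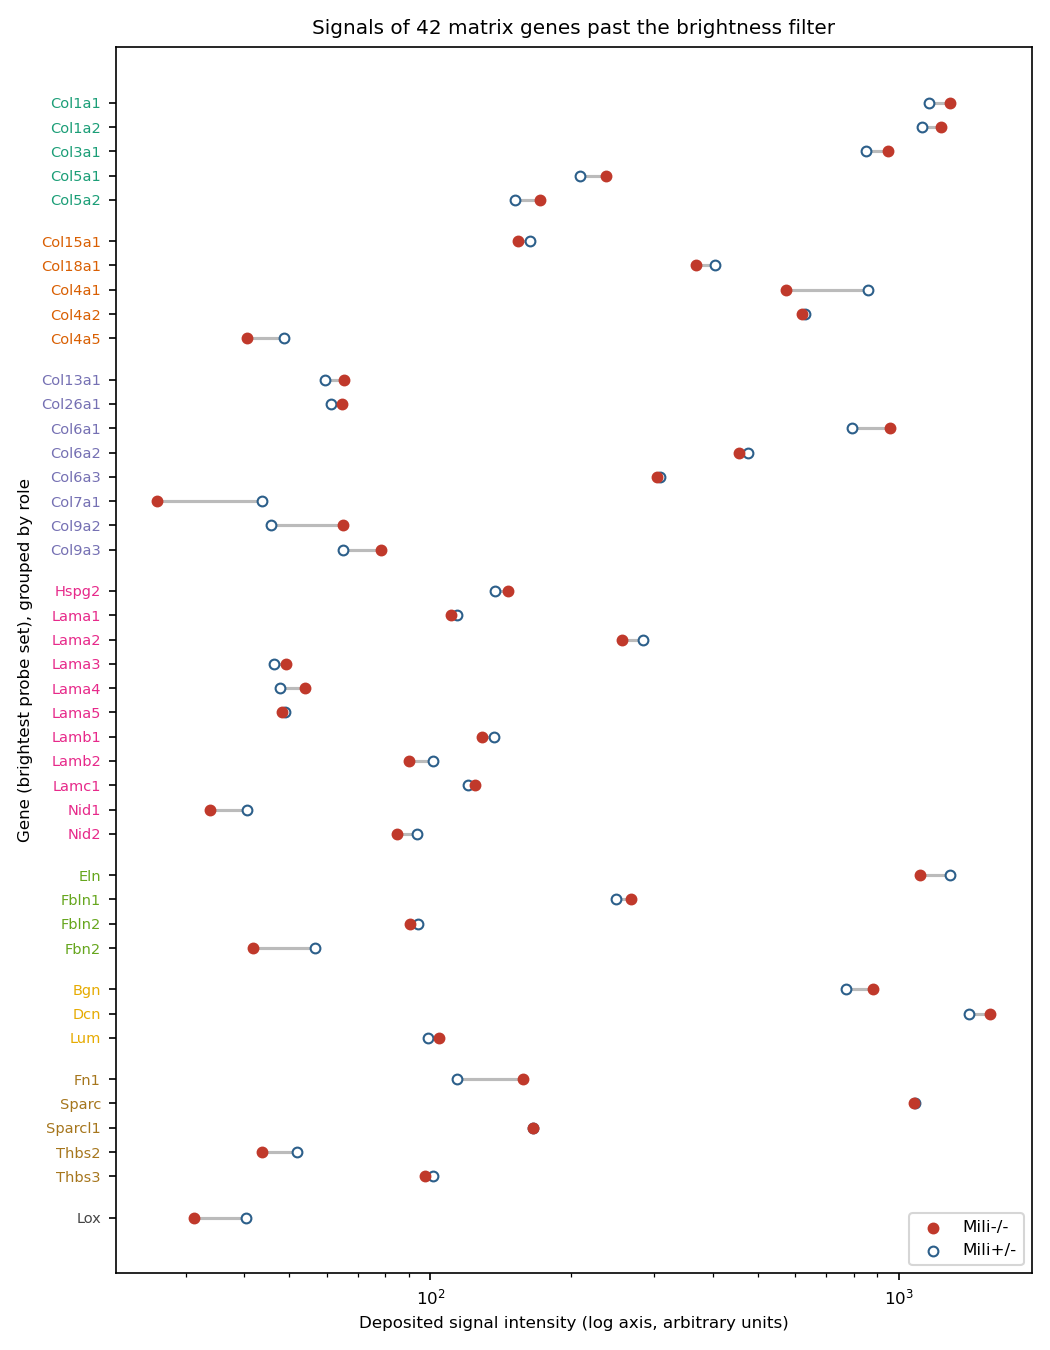
Deposited signal intensity (log axis) of the 42 matrix genes past the brightness filter, with a filled red point for the Mili-/- array and an open blue point for the Mili+/- array, 1 array each and no error bars. The longest lines between the points are those of Col4a1, Col7a1, Col9a2 and Fn1.

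Among the collagens of basement membranes and networks, Col4a1 had a signal of 574.6 in Mili-/- testis, against 858.7 in Mili+/- testis. Its difference was -0.69, a 1.61-fold lower level after centring, and the array holds no second probe set for it. Col4a2 had 620 in Mili-/- and 629.4 in Mili+/- (-0.13), so it stood at the median of all genes. The gap between the alpha 1 and alpha 2 chains was therefore -0.56, although their genes share the promoter stretch printed above. For scale, of the 209 genes whose 2 brightest probe sets were both at or above the 75th percentile on the brighter array, 16 (7.66%) had probe sets that disagreed with each other by at least that much. Among all 2786 genes at or above the 75th percentile of either array, 48 (1.72%) had a difference as low as that of Col4a1. Without centring Col4a1 stood at -0.58 and with centring on the 75th percentile at -0.55, both just under 1.5-fold.

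The other basement membrane collagens lay at or below the median of all genes. Col18a1 encodes a proteoglycan collagen of basement membranes that is the source of endostatin. Its brightest probe set had 368.9 in Mili-/- and 404.6 in Mili+/- (-0.24). The 3 further probe sets of Col18a1 past the filter stood at -0.40 (335.2 in Mili-/- and 409.8 in Mili+/-), -0.27 and -0.59, so all 4 past the filter gave a lower value in Mili-/-. The remaining one was dim, with a Mili-/- signal of 4.9 under the floor, and gives no direction. The related Col15a1, found where basement membranes meet the fibrils beneath, had 153.8 in Mili-/- and 163.1 in Mili+/- (-0.19). For Col4a5, whose chain forms the less common type IV networks, the signals were 40.5 in Mili-/- and 48.6 in Mili+/- (-0.37), and only its Mili+/- signal was bright enough for the filter, a route that selects for lower values. The 5 genes had a median of -0.24, and none of their 8 probe sets past the filter lay above the median of all genes.

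The fibril-forming collagens gave the opposite picture in their brightest probe sets, with small and closely similar differences. Col1a1, the main chain of type I collagen, had 1287.7 in Mili-/- and 1161.9 in Mili+/- (0.04). Its partner chain Col1a2 had 1230.7 in Mili-/- and 1120.9 in Mili+/- (0.02). In these probe sets both chains of type I collagen thus kept the same ratio between arrays to within 0.01 on the log2 scale. Their second probe sets did not, at -0.21 for Col1a1 and 0.28 for Col1a2. Col3a1, the type III collagen of reticular fibres, had 946.4 in Mili-/- and 849.5 in Mili+/- (0.05). Type V collagen starts and limits the growth of fibrils, and its chain genes were Col5a1 at 236.7 in Mili-/- and 208.2 in Mili+/- (0.08) and Col5a2 at 170.9 in Mili-/- and 151.7 in Mili+/- (0.06). All 5 lay above the median of all genes, with a group median of 0.05. Their further probe sets did not share this narrow range, since those of Col1a1 (-0.21), Col3a1 (-0.20 and -0.13) and Col5a1 (-0.38) lay below the median of all genes and that of Col1a2 (0.28) above it. When the probe sets of each gene were averaged, the fibril collagens had a median of -0.08, against -0.11 for all genes, while the basement membrane and network collagens stood at -0.37. The gap between the 2 groups has no test here.

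**Figure D2:**
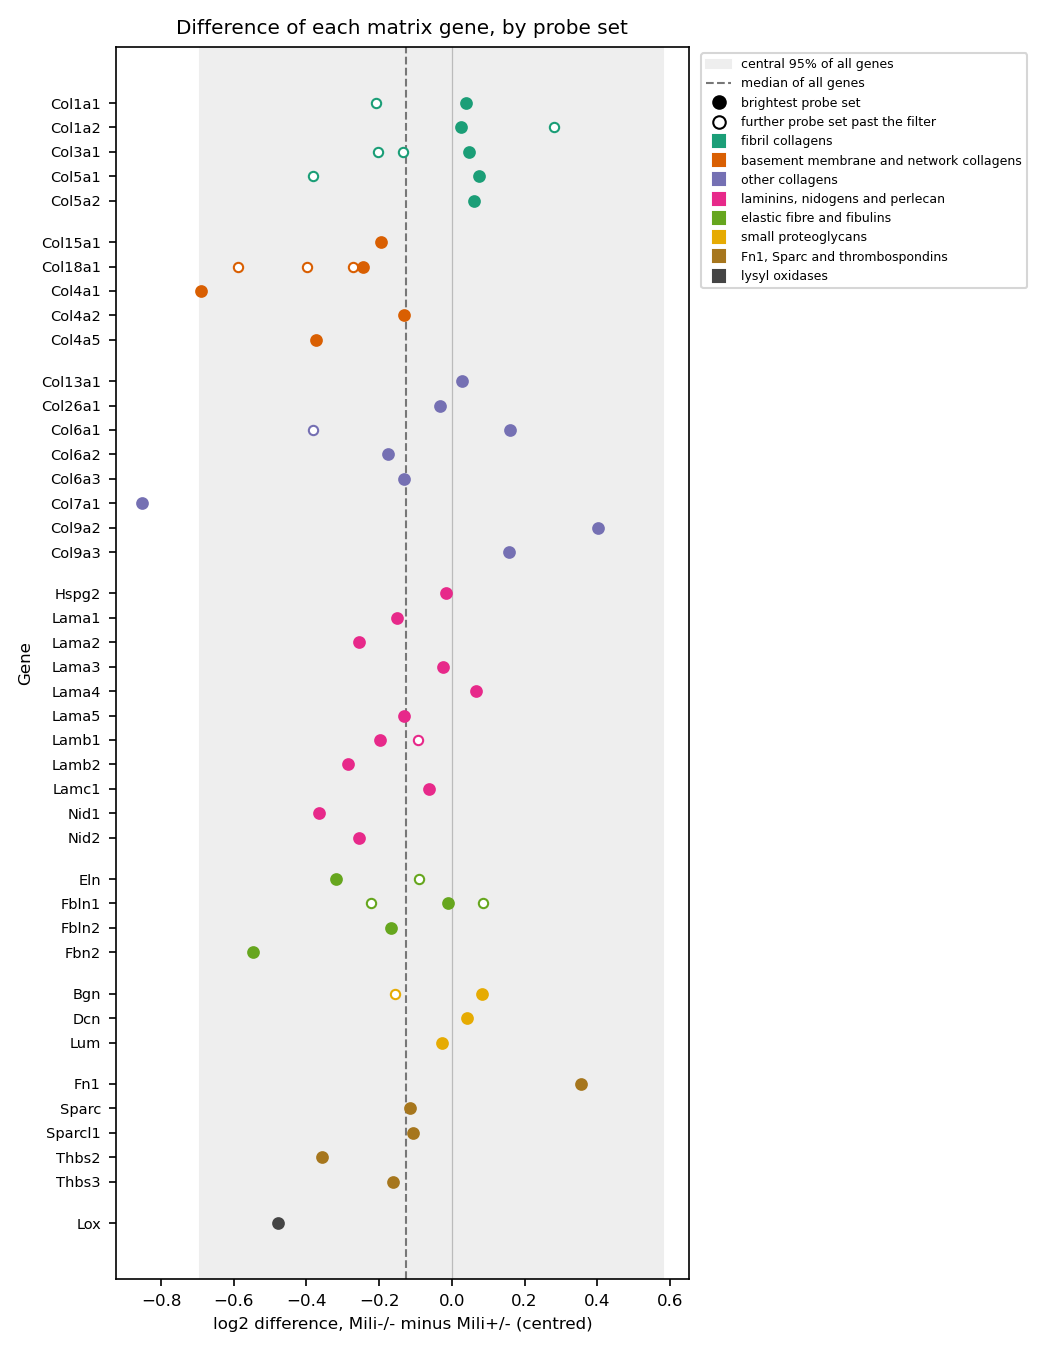
The log2 difference, Mili-/- minus Mili+/-, for each of the 42 genes, coloured by role, with filled points for the brightest probe set and open points for further probe sets past the filter. The grey band is the central 95% of all genes past the filter (-0.69 to 0.58) and the dashed line their median of -0.13, and Col7a1 is the 1 gene whose point lies outside the band.

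Among the other collagens, Col7a1, the anchoring fibril collagen beneath epithelia, had 26.1 in Mili-/- and 43.7 in Mili+/- (-0.85, 1.81-fold lower). Only its Mili+/- signal reached the filter, it was dim on both arrays and it has 1 probe set. Type VI collagen forms beaded filaments around cells, and its chains did not stand together. Col6a1 had 958 in Mili-/- and 794.1 in Mili+/- (0.16), but a second Col6a1 probe set stood at -0.38 (212.3 in Mili-/- and 256.6 in Mili+/-). Col6a2 had 455 in Mili-/- and 476.4 in Mili+/- (-0.18), and Col6a3 had 304.6 in Mili-/- and 309.1 in Mili+/- (-0.13). The gap between the 2 probe sets of Col6a1 was thus larger than that between the type VI chains, which spanned 0.34.

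Type IX collagen coats the type II fibrils of cartilage, and 2 of its 3 chain genes passed the filter. Col9a2 had 65 in Mili-/- and 45.6 in Mili+/- (0.40), the highest difference among the 42 genes. Col9a3 had 78.4 in Mili-/- and 65.1 in Mili+/- (0.16), with a dim second probe set that went the other way (5.4 in Mili-/- and 8.6 in Mili+/-). Col9a1 did not pass the filter, at 35.3 in Mili-/- and 20.3 in Mili+/-. The cartilage collagen Col2a1 was also dim, at 21 in Mili-/- and 19.5 in Mili+/-. Of the cartilage marker list 3 of 5 genes were measured and none passed the filter, with a summed signal of 32.1 in Mili-/- and 29 in Mili+/-. The transmembrane collagen gene Col13a1 (65.3 in Mili-/- and 59.4 in Mili+/-, 0.03) and Col26a1, a collagen described in testis and ovary (64.8 in Mili-/- and 61.4 in Mili+/-, -0.03), were nearly alike on both arrays.

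**Figure D3:**
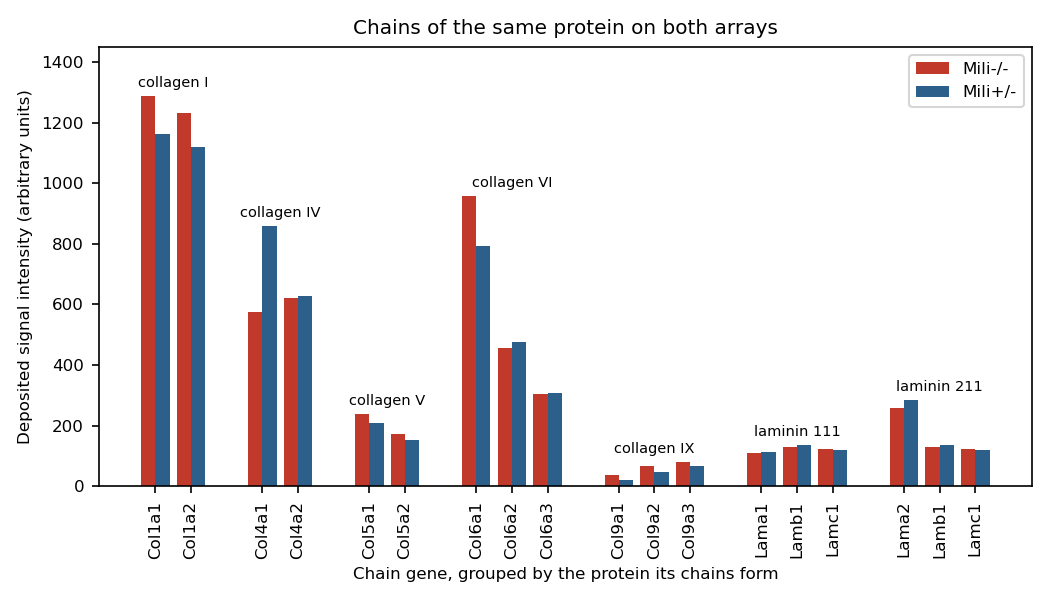
Deposited signal intensity of the chain genes of 7 proteins, with Mili-/- in red left of Mili+/- in blue, 1 array each and no error bars. Lamb1 and Lamc1 are drawn for both laminins they belong to, and heights of different genes are not comparable. The bars of Col4a1 (574.6 in Mili-/- and 858.7 in Mili+/-) stand apart from the nearly equal bars of Col4a2.

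Laminins, each built of 1 alpha, 1 beta and 1 gamma chain, showed small differences. None of the 11 genes of laminins, nidogens and perlecan past the filter was 1.5-fold apart, against 2.47% higher and 5.04% lower of all genes. Among 11 genes, a count of none is near these shares. Lama1, the alpha chain of embryonic basement membranes, had 110.5 in Mili-/- and 113.7 in Mili+/- (-0.15). Lama2, the alpha chain of muscle and nerve basement membranes, had 256.6 in Mili-/- and 283.8 in Mili+/- (-0.26). For Lama5, the most widely used alpha chain, the signals were 48.1 in Mili-/- and 48.8 in Mili+/- (-0.13). The epithelial chain gene Lama3 stood at -0.03 (49.2 in Mili-/- and 46.4 in Mili+/-). The vascular chain gene Lama4 had the highest difference of the group, at 0.07 (53.9 in Mili-/- and 47.7 in Mili+/-).

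Beta and gamma chains join several of these alpha chains. Lamb1 had 128.8 in Mili-/- and 136.9 in Mili+/- (-0.20), with a second probe set at -0.09. Lamb2, the beta chain of mature basement membranes, had 89.8 in Mili-/- and 101.4 in Mili+/- (-0.29). Lamc1, the gamma chain of most laminins, had 124.3 in Mili-/- and 120.4 in Mili+/- (-0.06). The alpha 1, beta 1 and gamma 1 chains together spanned 0.13 on the log2 scale, against 0.56 for the alpha 1 and alpha 2 chains of type IV collagen.

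The genes that link the laminin and collagen networks stood between -0.37 and -0.02. Nid1, a nidogen that bridges laminin and type IV collagen, had 33.9 in Mili-/- and 40.5 in Mili+/- (-0.37), with only the Mili+/- signal bright enough for the filter. Nid2 had 84.8 in Mili-/- and 93.8 in Mili+/- (-0.26). Hspg2, which encodes the heparan sulfate proteoglycan perlecan, had 146.2 in Mili-/- and 137.1 in Mili+/- (-0.02). The median of the 11 genes was -0.15, and 4 lay above and 7 below the median of all genes.

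Of the 4 elastic fibre genes 1 lay above and 3 below the median of all genes. Eln, the elastin gene, had 1109.3 in Mili-/- and 1282.8 in Mili+/- (-0.32), while a second Eln probe set had 112.4 in Mili-/- and 110.8 in Mili+/- (-0.09). Fbn2, a microfibril gene used mainly in development, had 41.9 in Mili-/- and 56.7 in Mili+/- (-0.55), the lowest of the group and read by 1 probe set. The fibulins, which bind elastin and basement membrane proteins, differed little, with Fbln1 at 267.3 in Mili-/- and 249.3 in Mili+/- (-0.01) and Fbln2 at 90.4 in Mili-/- and 94.1 in Mili+/- (-0.17). Further Fbln1 probe sets stood at -0.22 and 0.09. Lox, the lysyl oxidase that cross-links collagen and elastin, had 31.2 in Mili-/- and 40.3 in Mili+/- (-0.48), with only the Mili+/- signal bright enough for the filter. A dimmer Lox probe set went the other way, with 28.6 in Mili-/- and 15.1 in Mili+/- (0.81), so these probe sets give no direction for Lox.

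The small leucine-rich proteoglycans sit on collagen fibrils and set their spacing, and their genes stayed with the fibril collagens. Dcn, decorin, had 1567.3 in Mili-/- and 1412.2 in Mili+/- (0.04). Bgn, biglycan, had 882.1 in Mili-/- and 771.4 in Mili+/- (0.08), with a second probe set at -0.16. Lum, lumican, had 104.5 in Mili-/- and 98.6 in Mili+/- (-0.03). All 3 lay above the median of all genes.

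Fn1, which encodes fibronectin, a cell-binding glycoprotein of the tubule wall and interstitium, had 157.6 in Mili-/- and 114.1 in Mili+/- (0.36, 1.28-fold higher). It has 1 probe set, and its difference lay inside the central 95% of all genes. Sparc, a collagen-binding matricellular protein, had 1078.6 in Mili-/- and 1081.6 in Mili+/- (-0.11). Its relative Sparcl1 had 165.7 in Mili-/- and 165.4 in Mili+/- (-0.11). These 2 genes had almost the same deposited signal on both arrays. Thrombospondins regulate adhesion and vessel growth, and Thbs2 had 43.6 in Mili-/- and 51.8 in Mili+/- (-0.36), while Thbs3 had 97.5 in Mili-/- and 101.1 in Mili+/- (-0.16). The 1 probe set for Thbs1 is also annotated to another gene and stayed outside the comparison, at 19.3 in Mili-/- and 15.9 in Mili+/-.

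**Figure D4:**
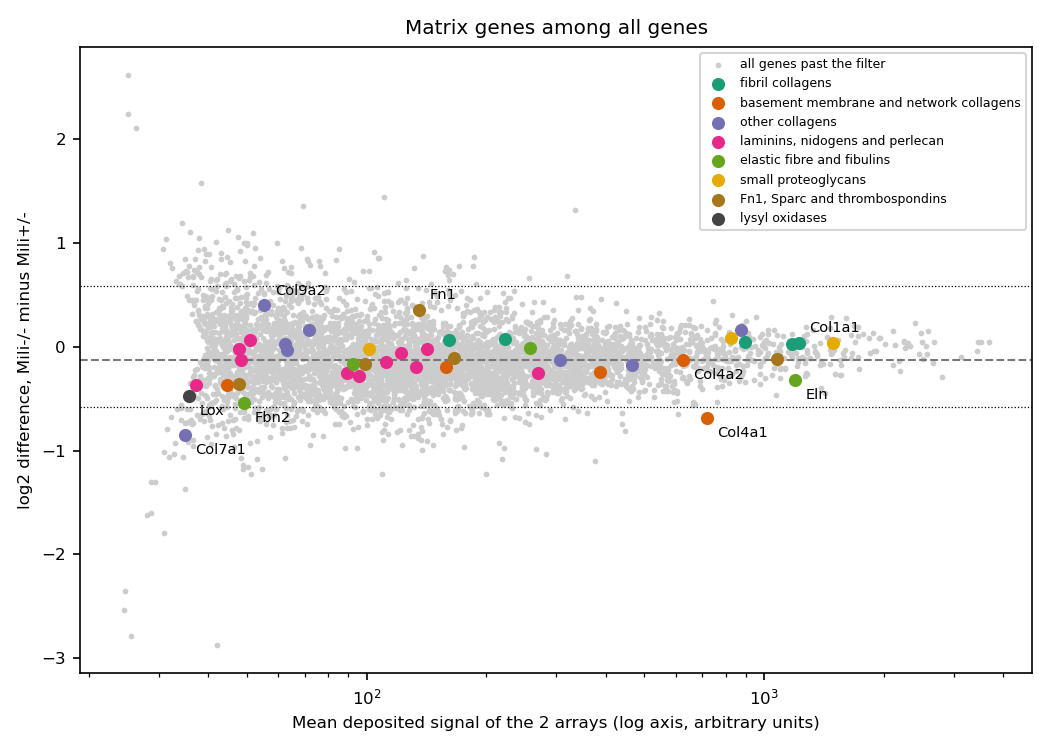
Mean deposited signal of the 2 arrays (log axis) against the log2 difference, Mili-/- minus Mili+/-, with all genes past the filter in grey and the matrix genes coloured by role. The dashed line is the median of all genes and the dotted lines mark 1.5-fold. Col4a1 and Col7a1 lie below the lower dotted line, Col4a1 among bright genes and Col7a1 at the dim edge.

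The remaining 15 matrix genes did not pass the filter. Their signals ran between 1.2 and 35.3 in Mili-/- and between 1.9 and 36.5 in Mili+/-, and none was listed at 0. They were the cartilage and fibril collagens Col2a1, Col11a1 and Col11a2, the network collagens Col4a3, Col4a4, Col8a1 and Col10a1, the collagens Col9a1, Col12a1, Col14a1, Col17a1, Col19a1 and Col22a1, the laminin chain Lamb3 and the lysyl oxidase Loxl1. In each array 4 of the 15 lay at or under the floor, 7 for Mili-/- and 6.3 for Mili+/-. Among the dim genes, Col4a4 had 8.9 in Mili-/- and 23.9 in Mili+/-, and Col11a1 had 27.2 in Mili-/- and 15 in Mili+/-. Such low signals carry no direction without replicate arrays.

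Of 17 genes that process collagen 12 were measured and all passed the filter, with a median of 0.08, against -0.13 for all genes. None was 1.5-fold apart in either direction, against 2.47% higher and 5.04% lower of all genes. Among 12 genes, a count of none is near these shares. Of the 12 genes, 9 lay above and 3 below the median of all genes. Pcolce, which enhances the cleavage of the procollagen C-terminal end, had 286.6 in Mili-/- and 183.3 in Mili+/- (0.53), and Bmp1, the protease that makes this cut, had 104.4 in Mili-/- and 72.8 in Mili+/- (0.41). A second probe set of Bmp1 stood at -0.06. Sec23a, a coat protein of the vesicles that carry procollagen, had 266.7 in Mili-/- and 295.9 in Mili+/- (-0.26), with a second probe set at -0.43.

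Of 21 matrix proteases and inhibitors 15 were measured and 9 passed, with a median of 0.12. None was at least 1.5-fold higher and 1 was lower, against 2.47% and 5.04% of all genes. That gene was Reck, a membrane inhibitor of metalloproteinases, with 85.5 in Mili-/- and 141.6 in Mili+/- (-0.84). Timp1, a secreted inhibitor, had 216.4 in Mili-/- and 147.1 in Mili+/- (0.45), and Mmp14, a membrane metalloproteinase, had 358.7 in Mili-/- and 421.9 in Mili+/- (-0.34). These 3 genes lay farthest from 0. Of the 9 genes, 7 lay above and 2 below the median of all genes.

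Of 22 matrix receptor genes 18 were measured and 10 passed, with a median of -0.19. None was at least 1.5-fold higher and 1 was lower, against 2.47% and 5.04% of all genes. The gene lower was Sdc4, a heparan sulfate co-receptor, with 64.4 in Mili-/- and 92.9 in Mili+/- (-0.64). Dag1, the laminin receptor dystroglycan, had 460.6 in Mili-/- and 597.3 in Mili+/- (-0.48), with a second probe set at -0.24. Itga7, a laminin-binding integrin chain, had 66.7 in Mili-/- and 42.1 in Mili+/- (0.55), with a second probe set at 0.12. Dag1 and Itga7 thus stood on opposite sides of the median of all genes. The integrin chain genes Itga6 (-0.22) and Itgb1 (-0.20) lay below it. Of the 10 receptor genes past the filter, 4 lay above and 6 below that median.

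Of 30 other matrix genes 26 were measured and 16 passed, with a median of -0.18. In each direction 1 gene was at least 1.5-fold apart, against 2.47% higher and 5.04% lower of all genes. Both passed only on the array where they were higher, a route that selects for such differences. Matn4, a matrilin, had 53.5 in Mili-/- and 26.7 in Mili+/- (0.89) and passed through the Mili-/- array alone. Vcan, the large proteoglycan versican, had 28.9 in Mili-/- and 44.5 in Mili+/- (-0.73) and passed through the Mili+/- array alone. Ogn, a small proteoglycan, had 105.1 in Mili-/- and 144 in Mili+/- (-0.56), while its second probe set had 116.5 in Mili-/- and 114.4 in Mili+/- (-0.08).

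Markers of the cells that make or border the tubule wall were read beside these values. Sums are of deposited signals before centring, so the brightest probe sets of a list weigh most in them. Of the peritubular myoid list 7 of 7 genes were measured, with a summed signal of 2366.1 in Mili-/- and 2218.2 in Mili+/-. The 6 past the filter had a median of 0.09 and stood between -0.43 and 0.64. Of the Sertoli list 7 of 8 were measured, with 2548.8 in Mili-/- and 2044.3 in Mili+/-. Their median was 0.38, with single genes between -0.14 and 0.54. Germ cell markers, 7 of 8 measured, summed to 1974.6 in Mili-/- and 2338.5 in Mili+/-. The 6 past the filter had a median of -0.46 and stood between -0.84 and -0.12. Of the genes past the filter, 6 of 7 Sertoli markers lay above the median of all genes and 5 of 6 germ cell markers below it. The germ cell marker Sall4 (-0.84) passed only through Mili+/-, a route that selects for lower values.

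Markers of other cell types showed both larger and smaller sums in Mili-/-. The adipocyte list summed to 307.3 in Mili-/- and 175.8 in Mili+/- over 4 of 6 genes, endothelium to 474.6 in Mili-/- and 401.4 in Mili+/- over 6 of 6, and Leydig cells to 693.4 in Mili-/- and 774.1 in Mili+/- over 5 of 6. Past the filter, single adipocyte genes stood between 0.18 and 1.36, endothelial genes between -0.25 and 0.45, and Leydig genes between -0.37 and -0.06. Adipoq, Fabp4, Car3 and the endothelial gene Pecam1 passed only through Mili-/-, a route that selects for higher values. Among the adipocyte genes only Lpl (0.18) reached the median on both arrays. The Leydig gene Star passed only through Mili+/-. The fibroblast list summed to 680.8 in Mili-/- and 671.7 in Mili+/- over 5 of 5 genes, of which 2 passed the filter. Skeletal muscle summed to 60.3 in Mili-/- and 105.9 in Mili+/- over 5 of 5, of which 1 passed the filter. Macrophages summed to 404.9 in Mili-/- and 375.4 in Mili+/- over 5 of 5, with differences of the single genes between -0.44 and 0.68. Erythroid cells summed to 1939.5 in Mili-/- and 1456.1 in Mili+/- over 3 of 4. The macrophage gene Cx3cr1 (0.68) and the erythroid genes Alas2 and Rhd also passed only through Mili-/-. No measured marker was listed at 0. The germ cell gene Sycp3 was read by 1 probe set, under the floor on both arrays (0.6 in Mili-/- and 1.1 in Mili+/-). That does not show whether the gene was expressed, and the germ cell gene Sycp1 had 162.8 in Mili-/- and 184.6 in Mili+/-. The part of cell composition in the matrix gene differences was not tested, and in whole testis RNA fewer cells of a type and less RNA per cell cannot be told apart.

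**Figure D5:**
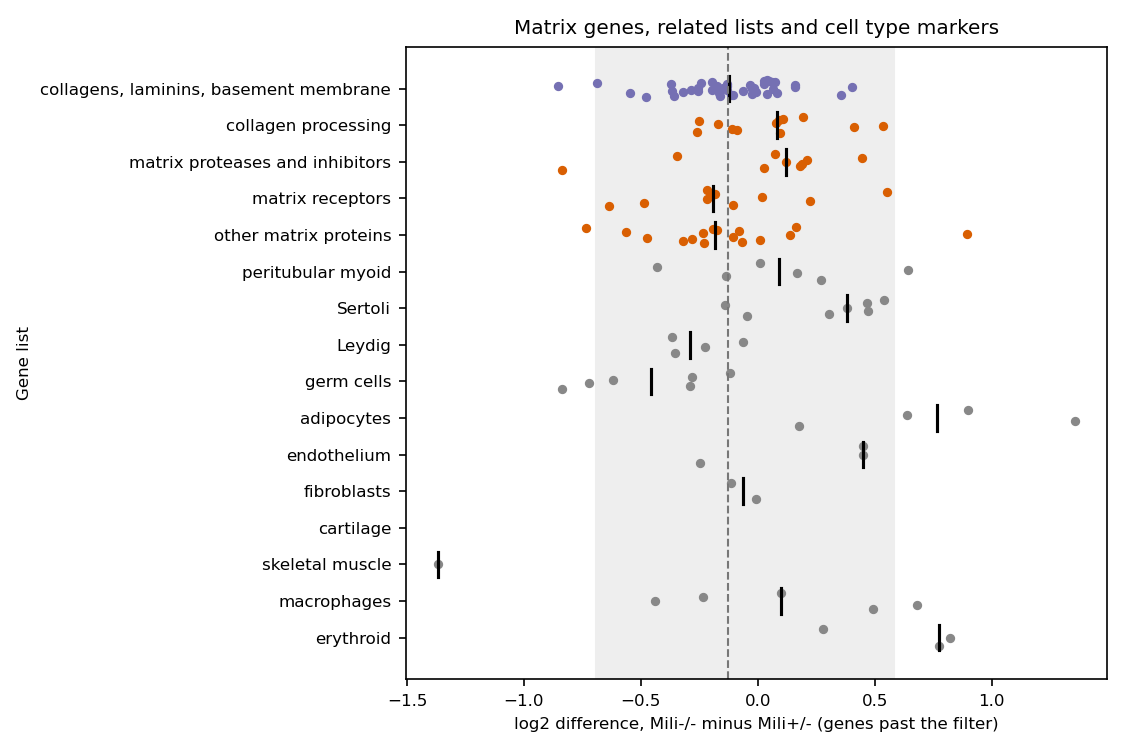
The log2 difference, Mili-/- minus Mili+/-, of each gene past the filter in the matrix gene set (purple), 4 related lists (orange) and 11 cell type marker lists (grey), with a black bar at each list's median, the grey band for the central 95% of all genes and the dashed line for their median. The matrix genes centre on the dashed line (-0.12 against -0.13), and no cartilage marker passed the filter. To the right of that line lie 6 of 7 Sertoli markers and all 4 adipocyte markers past the filter, and to its left 5 of 6 germ cell markers. Adipoq, Fabp4 and Car3 passed only through Mili-/- and Sall4 only through Mili+/-, a route that selects for such differences.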

How the data were processed

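Polyadenylated RNA of day 10 testes was measured on 2 arrays, 1 per genotype. The authors deposited a linear signal intensity per probe set, and their trimmed means (2% off each end) were 100.05 on both arrays, so the values appear already scaled. How they were background-corrected, and with what software, is not given in the sources used here. Of 12422 non-control probe sets 10833 had 1 gene symbol and 396 several. Symbols were updated through Entrez IDs for 10817. Each array's lowest signals were raised to its 20th percentile, log2 was taken and the array median was subtracted. All 42 genes past the brightness filter were to be named under their roles, and from each related list the 3 with the largest absolute difference. The members, lists and thresholds were chosen with earlier results of these data known. Related lists came from general knowledge of matrix biology. The code was tested on simulated data. The design planned a description of protein sequences, which were not analysed here. Having so few arrays limits the precision. Alternatives changed the scaling, floor, filter, probe set choice and fold threshold. Python 3.11.15, NumPy 2.4.6, pandas 2.3.3, statsmodels 0.14.6 (loess, span 0.4) and matplotlib 3.10.9 were used.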

Additional observations from a re-analysis of the deposited data

How the results depend on the processing

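The median difference of the matrix genes followed that of all genes under each scaling. It was 0.015 with centring on the 75th percentile, where the sign reversed and all genes stood at 0.011, and lay between -0.13 and -9.93e-05 under the other settings. This centring adds 1 constant to every difference. The count of matrix genes at least 1.5-fold lower was 2 (4.76%, or 5.26% with plain probe set names only) under 6 alternatives, against 2.71% to 5.04% of all genes. It was 1, Col7a1, without centring and with centring on the 75th percentile (2.38%, against 2.43% and 2.12% of all genes). It was 1, Col4a1, with the filter at the 75th percentile (4.55%, against 3.59%) and where both signals had to reach their array's median (2.63%, against 3.87%). It was 3 without the filter, where Col4a4 joined (5.26%, against 7.21%), and 0 at a fold threshold of 2 (against 0.53%). None was 1.5-fold higher except without the filter, which let in 2 dim genes, Col9a1 and Col11a1 (3.51%, against 6.22% of all genes). Of 434 values of single genes under the alternatives, 432 moved by less than 0.31, the SD between probe sets of a gene. The others were Lama4 (0.44) and Lox (0.17) with the mean over probe sets, which takes in a dim probe set of each. Many of the 434 could not move that far, so the count is no measure of stability. The floor and filter settings left the values of these genes unchanged. Leaving out the centring, or centring on the 75th percentile, added 1 constant under 0.31 to all of them. No paired analysis was possible because each genotype has 1 array. The number of arrays limits all values, and dim signal limits those near the floor.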
